A study of Mus musculus with 24 samples.

Results

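The genes described here are the glutathione, thioredoxin and NRF2 antioxidant genes of mouse macrophages, 72 entries among the 18132 genes of the authors' normalized table. They were chosen by name, with earlier results of these data known. The names cover the glutathione transferases of the A, M, O, P, T, Z and K classes and the microsomal transferases Mgst1, Mgst2 and Mgst3. They also cover the glutathione peroxidases, the peroxiredoxins, catalase and every gene whose symbol begins with TXN. The glutathione synthesis genes Gclc, Gclm and Gss, and Nqo1, Srxn1, Nfe2l2 and Keap1, complete the set. The entries stand for 71 genes, because TXNL4 and TXNL4A are both Txnl4a today. Gsr was not analysed here. Of the 72, 45 lay above the background limit on every array, 14 on some arrays and 13 on none. The 56 that passed it on at least 6 arrays were tested, and the other 16 were too dim to be compared, among them Gclc, Gsta1, Gsta2, Gpx8 and Txnl1. Gsta3, Gpx3 and Txnrd1, taken as markers of the set, were above the limit on all 24 arrays.

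RNA came from cultured macrophages that had been differentiated from the bone marrow of female Balb/c mice 8 to 10 weeks old. No genotype other than the strain is given for any group. For 24 h the cells were kept with interleukin-4 (IL-4), with interferon-gamma (IFN-gamma), with isoproterenol, a synthetic agonist of beta-adrenergic receptors, or in medium alone. Each of these 4 groups held 6 Illumina bead arrays, made up of 2 arrays from each of 3 experiments, and the study asked where isoproterenol-treated cells stand relative to the IL-4 and IFN-gamma states.

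Glutathione and thioredoxin are carriers of reducing power in the cell. Transferases couple glutathione to electrophiles, while glutathione peroxidases, peroxiredoxins and catalase remove peroxides, and thioredoxin reductases recharge thioredoxin. NRF2, the product of Nfe2l2, drives many of these genes through a DNA site called the antioxidant response element, and KEAP1 holds NRF2 back by passing it to a ubiquitin ligase. In macrophages these systems act beside the oxidants that the cells themselves make.

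The core of the antioxidant response element, searched here as TGACNNNGC on both strands, was looked for in the RefSeq promoters of these genes (assembly GRCm38.p6, from 250 bases before the gene start to 50 bases after it). It occurred in 12.4% of the 32851 promoters in the table, and at least 1 promoter held it for 14.0% of all 27025 genes and for 13 of the 63 members with a promoter there (20.6%). The 6 promoters below are shown because the results turn on these genes: Gsta3 was lower with IFN-gamma, Prdx5 and Txn1 were higher with it, and Srxn1, Prdx1 and Txnrd1, which carry the core, did not pass the test with it. They are Gsta3 (chr1:21240335-21240634, plus strand), Srxn1 (chr2:152105274-152105573, plus strand), Prdx1 (chr4:116685349-116685648, plus strand), Txnrd1 (chr10:82858956-82859255, plus strand, 1 of its 3 listed promoters), Prdx5 (chr19:6910057-6910356, minus strand) and Txn1 (chr4:57956362-57956661, minus strand). Each is written 5′ to 3′ on the strand of its gene, and capitals mark the core or its reverse complement.
Gsta3: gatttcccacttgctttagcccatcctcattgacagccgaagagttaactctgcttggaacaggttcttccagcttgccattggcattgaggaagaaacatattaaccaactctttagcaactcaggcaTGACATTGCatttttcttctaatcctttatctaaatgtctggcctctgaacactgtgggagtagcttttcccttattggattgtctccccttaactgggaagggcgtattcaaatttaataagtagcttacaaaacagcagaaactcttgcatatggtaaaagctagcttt
Srxn1: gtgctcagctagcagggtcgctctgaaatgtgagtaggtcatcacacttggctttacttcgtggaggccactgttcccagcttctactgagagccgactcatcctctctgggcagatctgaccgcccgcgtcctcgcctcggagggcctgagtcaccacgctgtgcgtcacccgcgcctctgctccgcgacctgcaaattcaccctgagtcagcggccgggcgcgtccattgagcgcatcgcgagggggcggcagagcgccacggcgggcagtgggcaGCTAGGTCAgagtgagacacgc
Prdx1: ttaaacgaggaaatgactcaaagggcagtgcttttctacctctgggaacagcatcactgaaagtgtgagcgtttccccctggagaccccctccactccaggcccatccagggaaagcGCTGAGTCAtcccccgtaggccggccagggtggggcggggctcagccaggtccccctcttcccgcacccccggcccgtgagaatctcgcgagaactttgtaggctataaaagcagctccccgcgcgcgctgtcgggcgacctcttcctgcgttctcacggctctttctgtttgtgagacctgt
Txnrd1: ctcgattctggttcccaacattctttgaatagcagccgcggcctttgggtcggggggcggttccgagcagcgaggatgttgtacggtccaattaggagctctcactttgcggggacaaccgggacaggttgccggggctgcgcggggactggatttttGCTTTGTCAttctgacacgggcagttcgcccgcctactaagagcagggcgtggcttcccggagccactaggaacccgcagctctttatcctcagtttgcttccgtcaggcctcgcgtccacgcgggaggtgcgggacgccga
Prdx5: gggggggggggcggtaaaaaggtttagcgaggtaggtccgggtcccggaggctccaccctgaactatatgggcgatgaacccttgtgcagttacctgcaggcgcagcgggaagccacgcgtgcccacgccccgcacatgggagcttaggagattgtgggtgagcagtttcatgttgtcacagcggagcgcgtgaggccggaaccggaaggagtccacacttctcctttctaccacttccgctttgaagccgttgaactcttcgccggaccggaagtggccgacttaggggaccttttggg
Txn1: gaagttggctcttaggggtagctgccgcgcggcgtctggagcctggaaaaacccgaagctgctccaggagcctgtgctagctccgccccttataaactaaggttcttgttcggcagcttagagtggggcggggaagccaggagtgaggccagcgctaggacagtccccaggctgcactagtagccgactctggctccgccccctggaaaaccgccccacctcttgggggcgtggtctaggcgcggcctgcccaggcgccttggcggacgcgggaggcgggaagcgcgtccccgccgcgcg
In Gsta3 the match began at position -121 from the gene start, on the strand of the gene. In Prdx1 it began at position -133 and in Txnrd1 at position -92, both on the other strand, and in Srxn1 at position 29, also on the other strand. The windows of Prdx5 and Txn1 held no match to these letters. Forms of the element that differ from these letters were not searched for and are not marked in any window.

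**Figure D1:**
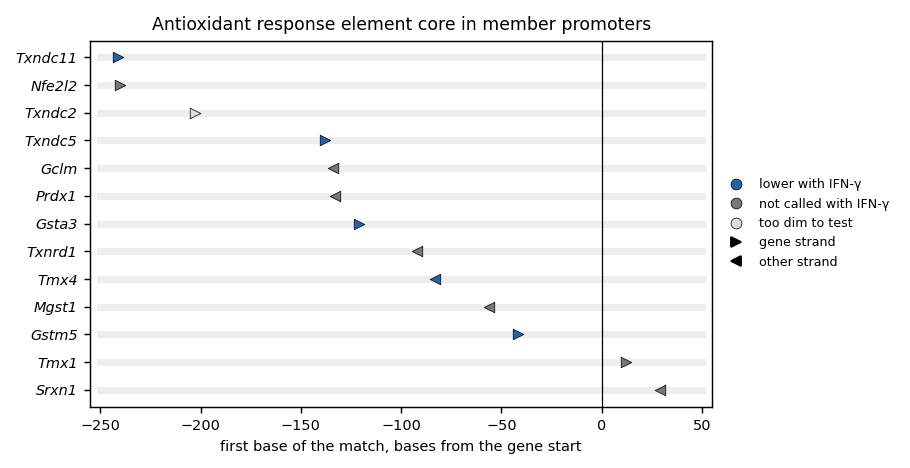
Positions of the antioxidant response element core in the 13 member promoters that hold it. The horizontal axis gives the first base of the match in bases from the gene start, the direction of each triangle gives the strand, and the shade gives the gene's call with IFN-gamma: 5 genes were lower, 7 did not pass the test, 1 was too dim to be tested and none was higher.

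Among members with a promoter in the table, 5 of the 21 that were lower with IFN-gamma held the core (23.8%), as did 0 of the 5 that were higher, 7 of the 25 that were tested and not called (28.0%) and 1 of the 12 too dim to be tested (8.33%). A match describes the letters only and was not tested as a site.

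Intensities of a gene by array are the authors' normalized values. Background is the mode of all normalized intensities, and the limit of 149 is this mode plus 1.64 SD of the values below it. A log2 fold change compares the intensities after a background step and is given ± SE of the fit, the 2 arrays of an experiment and activator having been averaged. This SE comes from a residual spread shared by all groups, after a term for experiment, and moderated by limma over genes. It is not the spread of the 3 differences of a single comparison. A gene was called when its two-sided adjusted p (limma, Benjamini-Hochberg over all 10111 genes tested) was under 0.05. Nothing in the labels tells whether both arrays of a pair stand for different cultures or mice. The p-values of the main fit rest on how the differences between groups vary among the 3 experiments. Within a single slide they rest on the 2 arrays of a pair, since each slide fitted alone holds 1 experiment. The raw median intensity per array lay between 134.6 and 172.2, and each array had 9230 to 9307 genes above the limit. The 6 listed macrophage markers were above the limit on every array, and their summed intensity was 28450 to 31066 with IL-4, 19116 to 24507 with IFN-gamma, 28455 to 31470 with isoproterenol and 26781 to 30998 in medium. With IFN-gamma 3 of these markers were lower and 2 higher: Cd68, the largest term of the sum, averaged 12161 with IFN-gamma and 22030.5 in medium, while Fcgr1 averaged 3075 with IFN-gamma and 610.2 in medium, and Mertk 1997 with IFN-gamma and 734 in medium. With each activator the summed markers of T cells, B cells, erythroid, dendritic and mast cells, fibroblasts and endothelium overlapped those in medium. Most of these markers lay near the background, so their sums could show little. With IFN-gamma 1 of 2 tested T-cell markers was higher (Lck, mean 203 against 162 in medium), as was 1 of 2 endothelial markers. The 1 tested B-cell marker, Cd79b, was lower (mean 155 against 171 in medium). No tested erythroid, dendritic or mast-cell marker was called with it. The summed cycling-cell markers were 1104 to 3392 with IL-4, 1007 to 4821 with IFN-gamma, 1127 to 2160 with isoproterenol and 1400.3 to 3906 in medium. The response to the stimuli was read from short lists of known response genes: all 6 listed IL-4 response genes were higher with IL-4, and all 6 listed IFN-gamma response genes were higher with IFN-gamma. With isoproterenol 3 of the 4 tested cAMP response genes were higher, Fos, Dusp1 and Crem, but not Per1 (1.01% of all tested genes were higher). The list held 8 genes, of which Nr4a1, Pde4b, Areg and Sik1 were too dim to be tested. With IFN-gamma 3 of the 4 tested genes were higher as well (17.3% of all tested genes were). The median log2 fold change of the 4 was 0.54 with isoproterenol and 0.61 with IFN-gamma, so this list does not single out isoproterenol. An IFN-gamma array, replicate 2 of experiment 1, stood apart: its values correlated with those of its partner array at r = 0.977 over genes, while every other pair reached at least 0.996. Members' calls that change without this array are given both ways. The array lies on the slide of experiment 1, so missing calls within that slide need not mean missing differences. Member counts at an unadjusted p, within slides, or with an experiment or this array left out stand without the share over all tested genes. They do not tell whether members differed from other genes.

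IFN-gamma gave more calls among these genes than the other activators. Of the 56 tested members, 28 (50%) were called against medium, where 43.1% of all tested genes were called. Lower were 22 members (39.3%, against 25.8% of all genes) and higher were 6 (10.7%, against 17.3% of all genes). The members' median log2 fold change was -0.13, and that over all genes -0.03. All 28 had the same sign in the 3 experiments, as did every called member in the other comparisons. The calls rest on these same experiments, so this agreement is no separate support. In experiment 3 the IFN-gamma and medium arrays lay on different slides. With slide as a block the count was 27, in a fit where the medium arrays of experiment 3 have no weight. Within the slides of experiments 1 and 2 the count was 15 and 22. In such bulk samples fewer cells of a type and less RNA per cell cannot be told apart. On the same arrays the summed neutrophil and precursor markers, of which 6 of 7 were in the table, were 4051 to 5369 with IFN-gamma and 1977 to 2835 in medium. Among those 6 markers S100a8 was higher by 1.45 (log2), S100a9, Mpo and Prtn3 were lower, and Elane was not in the table used here. The part of the marker shifts in the results was not tested.

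The glutathione transferases held 11 of the 22 lower members: of 19 tested, 11 were lower with IFN-gamma, 2 were higher and 6 were not called, with a median of -0.41. Beside this and the counts of the other roles stand the 25.8% of all tested genes that were lower and the 17.3% that were higher. Gstm1, a mu-class transferase, had intensities of 601 (lowest), 665 (median) and 827 (highest) on the IFN-gamma arrays, against 1780.4, 2258 and 2367 on the medium arrays. Every IFN-gamma array was below every medium array, and the log2 fold change was -1.76 ± 0.06 (3.39-fold lower, adjusted p = 2.77e-09). Gsta3, an alpha-class transferase, read 201, 220.1 and 258 with IFN-gamma, against 362, 525 and 619 in medium. These groups did not overlap either, with a log2 fold change of -1.51 ± 0.14 (2.85-fold lower, adjusted p = 4.48e-06). Gsto1, an omega-class enzyme that also reduces dehydroascorbate, read 2577, 2619.8 and 2750.1 with IFN-gamma, against 3898, 4963 and 5188 in medium. It was lower on every IFN-gamma array, with a log2 fold change of -0.87 ± 0.06 (1.83-fold lower, adjusted p = 3.86e-07).

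A further 3 transferases were lower on average but with arrays that overlapped. Mgst2, a microsomal transferase that can make a cysteinyl leukotriene, read 296, 369 and 467 with IFN-gamma, against 369, 601 and 756 in medium (log2 fold change -0.69 ± 0.16, adjusted p = 0.00416). Its difference was hardly visible in experiment 1 (-0.10) and larger in the other two (-0.77 and -1.2). Gstm5 read 258, 334 and 434 with IFN-gamma, against 369.7, 483 and 561 in medium (-0.62 ± 0.09, adjusted p = 0.000204). Gstt3, a theta-class gene, read 239, 294 and 402 with IFN-gamma, against 371, 414 and 498 in medium (-0.60 ± 0.10, adjusted p = 0.00065). The 2 lowest medium values of each of these 3 genes were those of experiment 1. Within the slide that holds this experiment none of the 3 was called (log2 fold changes -0.10, -0.34 and -0.35). That slide also holds the array that stood apart, so a missing call there need not mean a missing difference. Within the slide of experiment 2 all 3 were called (-0.77, -0.68 and -0.45). The highest IFN-gamma value of Gstm5 and of Gstt3 was that of the array that stood apart, and without it the log2 fold changes were -0.78 and -0.76. Mgst3 (-0.56), Gstt2 (-0.42), Gstz1 (-0.41) and Gstm6 (-0.28) were also lower. For Gstz1 and Gstm6 every IFN-gamma array was below every medium array. Gstt1 was called lower too (adjusted p = 0.00239), with means of 139 on the IFN-gamma arrays, none of them above the limit, and 169 on the medium arrays, all above it. Both means lie too near the background for a fold.

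The pi-class gene Gstp1 went the other way. It read 682, 888 and 990.3 with IFN-gamma, against 572, 629 and 633 in medium, and every IFN-gamma array was above every medium array (log2 fold change 0.52 ± 0.08, adjusted p = 0.000304). Gsta4, whose enzyme handles products of lipid peroxidation, was higher by 0.37 ± 0.09 (adjusted p = 0.00708), but it was above the background limit on only 3 of the 6 medium arrays, so the size is uncertain. Among those not called were Mgst1 (0.04), Gstm4 (-0.02), Gsto2 (-0.01) and Gstp2 (-0.08). Probes of one transferase class can read transcripts of near-identical members, so the values of the A, M, P and T classes are uncertain for the single gene.

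**Figure D2:**
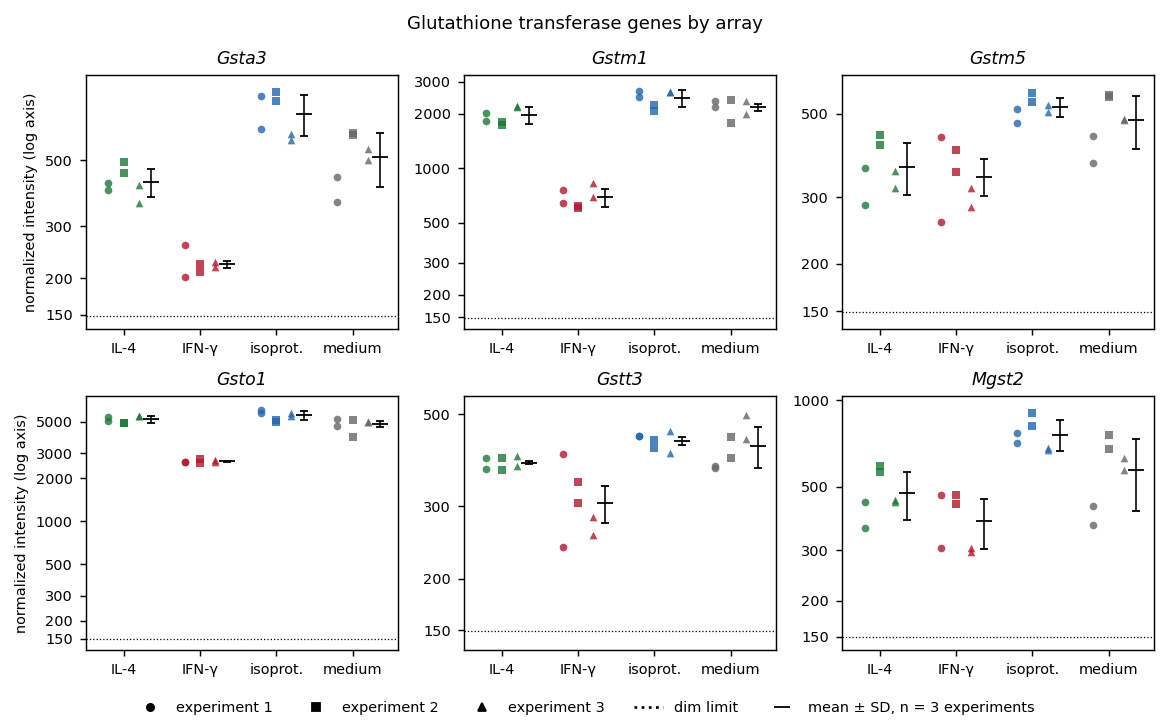
Normalized intensity (log axis) of 6 transferase genes on the 24 arrays, 6 in each group, with symbols for the 3 experiments, a black mean ± SD over experiments (n = 3) and a dotted line at the background limit of 149. Gsta3, Gstm1 and Gsto1 were lower on all IFN-gamma arrays than on any medium array, while Gstm5, Gstt3 and Mgst2 overlapped.

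Among the peroxide-removing enzymes 5 of 13 tested genes were lower with IFN-gamma, 1 was higher and 7 were not called. Gpx3, which encodes a secreted selenium-containing glutathione peroxidase, fell the most of all tested members: it read 918, 1225 and 1494 with IFN-gamma, against 3385, 4832 and 5357 in medium. The groups were far apart, with a log2 fold change of -2.0 ± 0.12 (4.0-fold lower, adjusted p = 1.56e-07) and differences of -2.29, -1.56 and -2.14 in experiments 1 to 3. Catalase (Cat), which splits hydrogen peroxide in peroxisomes, read 1902, 2378 and 2525 with IFN-gamma, against 3197, 3433 and 3911 in medium. It was lower on every IFN-gamma array (log2 fold change -0.61 ± 0.06, adjusted p = 1.45e-05). The cytosolic peroxidase gene Gpx1 (-0.24), the lipid peroxidase gene Gpx4 (-0.29) and the mitochondrial peroxiredoxin gene Prdx3 (-0.25) were lower by smaller amounts.

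Prdx5, a peroxiredoxin found in mitochondria, peroxisomes and cytosol, rose the most of all tested members. It read 5834, 9286 and 11639 with IFN-gamma, against 2903, 3429.7 and 3509 in medium. No array of the groups overlapped, and the log2 fold change was 1.45 ± 0.08 (2.72-fold higher, adjusted p = 6.76e-08), with 1.25, 1.37 and 1.72 in experiments 1 to 3. The lowest of the 6 IFN-gamma values was that of the array that stood apart. The other peroxiredoxins gave no call against medium apart from Prdx3: the log2 fold change was -0.09 for Prdx1, 0.04 for Prdx2, 0.05 for Prdx4 (-0.08 without that array) and -0.14 for Prdx6.

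The thioredoxin core went both ways. Of 6 tested genes 2 were higher with IFN-gamma, 3 were lower and 1 was not called. Txn1, the thioredoxin of cytosol and nucleus, read 511, 537 and 588 with IFN-gamma, against 228, 275 and 297 in medium. Every IFN-gamma array was above every medium array (log2 fold change 1.24 ± 0.11, 2.36-fold higher, adjusted p = 2.62e-06). Its mitochondrial counterpart Txn2 was higher by 0.25 ± 0.07 (adjusted p = 0.0128). The mitochondrial reductase gene Txnrd2 read 466, 509.9 and 539 with IFN-gamma, against 765, 793 and 856 in medium. It was lower on every array and by nearly the same amount in each experiment, -0.74, -0.73 and -0.75 (fit -0.74 ± 0.05, adjusted p = 7.51e-07). Txnip, whose product binds and inhibits thioredoxin, read 2559, 2979 and 3363 with IFN-gamma, against 4079, 4157 and 5431 in medium, again with no overlap (-0.61 ± 0.11, adjusted p = 0.000661). Txnrd3, a reductase best known from testis, was also lower (-0.39 ± 0.06, adjusted p = 0.000162).

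Txnrd1, the cytosolic thioredoxin reductase and a textbook NRF2 target, stayed close to the background limit in all groups. It read 159, 166 and 184 with IL-4, 153, 161 and 169.6 with IFN-gamma, 165, 174 and 185 with isoproterenol, and 158, 169 and 192 in medium. All groups overlapped with medium, and none of the 3 activators gave a call against it (log2 fold changes -0.02, -0.13 and 0.08). Its 95% intervals, -0.16 to 0.12, -0.27 to 0.01 and -0.06 to 0.22, leave room for small changes, and at this brightness the probe can show little more. Among the 12 tested genes with a thioredoxin fold or a thioredoxin-like name, 3 were lower with IFN-gamma, a share near that of all tested genes, and 9 were not called. The lower ones were Tmx4 (TXNDC13 in the files, -0.40), Txndc5 (-0.28) and Txndc11 (-0.16), which encode proteins of the endoplasmic reticulum. Txndc11 was just past the threshold (adjusted p = 0.0486) and was not called without the array that stood apart (adjusted p = 0.0627).

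**Figure D3:**
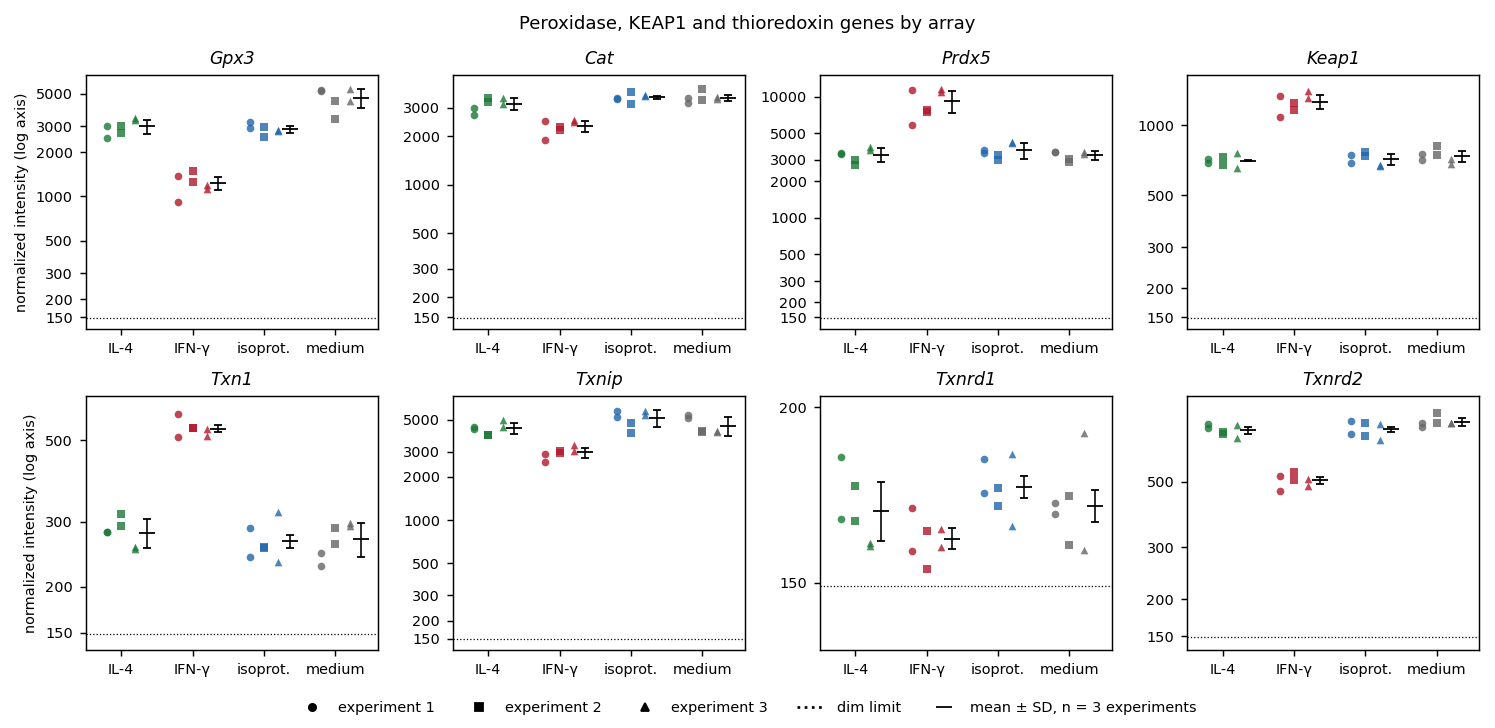
Normalized intensity (log axis) of Gpx3, Cat, Prdx5, Keap1 and 4 thioredoxin genes on the 24 arrays, with symbols for the 3 experiments, a black mean ± SD over experiments (n = 3) and a dotted line at the background limit. The IFN-gamma arrays stand below medium for Gpx3, Cat, Txnip and Txnrd2 and above it for Prdx5, Keap1 and Txn1, while Txnrd1 lies near the limit in every group.

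Of the NRF2 switch, Keap1 was higher with IFN-gamma. It read 1086, 1274 and 1404 on these arrays, against 682, 728 and 811 in medium, with no overlap (log2 fold change 0.83 ± 0.07, 1.78-fold higher, adjusted p = 2.81e-06). Nfe2l2, which encodes NRF2 itself, gave no call (-0.13 ± 0.08, adjusted p = 0.192), and without the array that stood apart its value was 0.03 (adjusted p = 0.849). Of the 2 members taken as signature targets of NRF2, neither was called. Nqo1, a quinone reductase, had -0.07 ± 0.06 (adjusted p = 0.389), with means of 170 with IFN-gamma and 175 in medium. Both means lie near the background limit of 149, so a change could show only in part. Srxn1, which repairs over-oxidised peroxiredoxins, had -0.09 ± 0.09 (adjusted p = 0.466), which turned to 0.13 without the array that stood apart (adjusted p = 0.38). Among targets outside the set, Hmox1 averaged 2399 with IFN-gamma and 3019 in medium, and Slc7a11 averaged 607 with IFN-gamma and 637 in medium. These genes are given by their means only. Of 25 tested partners and further targets of NRF2, 4 were higher with IFN-gamma, 12 lower and 9 not called. Of all tested genes 17.3% were higher and 25.8% lower. Of the synthesis genes, Gss had -0.04 ± 0.06 (adjusted p = 0.647), and Gclm, the regulatory subunit of glutamate-cysteine ligase, had 0.24 ± 0.09 (adjusted p = 0.0524).

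Several of these values leaned on the array that stood apart. There Srxn1 read 822, against 1082 to 1932 on the other 5 IFN-gamma arrays and 1311 to 1530.2 on the medium arrays. Without that array Gclm was called higher (0.35, adjusted p = 0.0153), Gpx7, Gstk1 and TXNL4A were called lower (-0.27, -0.22 and -0.20), and Txndc11 was not called. The count against medium was then 31, of which 7 were higher and 24 lower, and 27 of the 28 calls were kept.

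**Figure D4:**
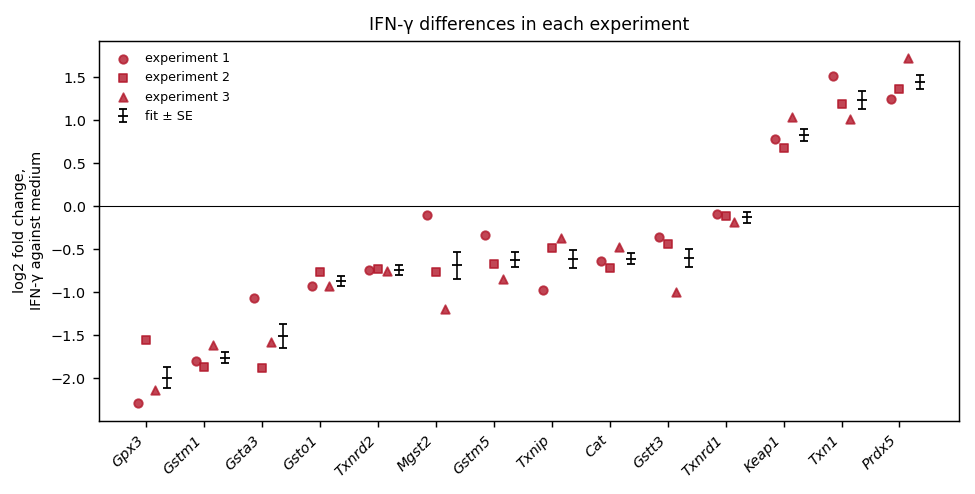
Log2 fold change of 14 members with IFN-gamma against medium in each of the 3 experiments, with the fitted value ± SE in black. Txnrd2 and Gstm1 moved by similar amounts in each experiment, while Mgst2 ranged from -0.10 in experiment 1 to -1.2 in experiment 3.

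With IL-4, 4 of the 56 tested members were called against medium (7.14%), and 7.77% of all tested genes were. Of these, 2 were higher (3.57%, against 4.03% of all genes) and 2 lower (3.57%, against 3.75%), and the median log2 fold change was -0.01 for members and for all genes. At an unadjusted p under 0.05 there were 14, but without the share over all tested genes no response can be read from this number. Leaving out experiment 1, 2 or 3 gave 3, 2 and 1 calls. In experiment 3 the IL-4 and medium arrays lay on different slides, and within the slides of experiments 1 and 2 the counts were 0 and 3. Gpx3 read 2491, 2999 and 3424 with IL-4, against 3385, 4832 and 5357 in medium. Only the lowest medium array reached into the IL-4 range, and the log2 fold change was -0.65 ± 0.12 (1.57-fold lower, adjusted p = 0.00659). Gstm5 read 286, 356 and 439 with IL-4, against 369.7, 483 and 561 in medium, with more overlap (-0.50 ± 0.09, adjusted p = 0.00608). The microsomal transferase gene Mgst1 was higher, at 4945, 5919 and 6120.5 with IL-4, against 3775, 4469.7 and 5072 in medium (0.34 ± 0.06, adjusted p = 0.00414). Nqo1 was also higher, at 187, 192 and 199 with IL-4, against 164, 173 and 194 in medium (0.23 ± 0.06, adjusted p = 0.0295). The arrays of the 2 genes overlapped with medium, and the differences were small in size. They were of one sign in all 3 experiments, as for every called member.

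Other members leaned without passing the test. Gstp1 was above medium on every IL-4 array, at 709 to 783, against 572 to 633 in medium, but its adjusted p was 0.0697 (0.27 ± 0.08). Srxn1 had 0.21 ± 0.09 (adjusted p = 0.212), Gsta3 had -0.31 ± 0.14 (adjusted p = 0.256) and Mgst3 had -0.40 ± 0.13 (adjusted p = 0.105). For the genes that IFN-gamma raised most the values with IL-4 were 0.00 ± 0.08 for Prdx5, 0.08 ± 0.11 for Txn1 and -0.07 ± 0.07 for Keap1. The IL-4 and IFN-gamma differences share the same medium arrays.

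With isoproterenol 1 of the 56 tested members was called against medium (1.79%), beside 1.28% of all tested genes. It was lower, as were 0.267% of all genes, no member was higher, as were 1.01% of all genes, and the members' median log2 fold change was 0.01. At an unadjusted p under 0.05 there were 10, again without the share over all tested genes. Gpx3 read 2517, 2869 and 3194 with isoproterenol, against 3385, 4832 and 5357 in medium. All isoproterenol arrays lay below all medium arrays (log2 fold change -0.71 ± 0.12, 1.64-fold lower, adjusted p = 0.0161). The difference was -0.79, -0.53 and -0.82 in experiments 1 to 3, but leaving out any one experiment took the call away (adjusted p = 0.103, 0.0684 and 0.167). In experiments 2 and 3 the isoproterenol and medium arrays lay on different slides. With slide as a block the value was -0.67 (adjusted p = 0.257), and within the slide that holds both groups it was -0.79 (adjusted p = 0.534).

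Srxn1 read 1719, 1811 and 1924 with isoproterenol, against 1311, 1407 and 1530.2 in medium. Every isoproterenol array was above every medium array and the difference was 0.38 in each of the 3 experiments, but the adjusted p was 0.0721. Gsta3 read 588, 716 and 852 with isoproterenol, against 362, 525 and 619 in medium, and its log2 fold change of 0.56 ± 0.14 missed the threshold (adjusted p = 0.0985). Mgst2 had 0.50 ± 0.16 (adjusted p = 0.196), with 1.03 in experiment 1 and 0.29 and 0.19 in the others. Nqo1 had 0.20 ± 0.06 (adjusted p = 0.134) and Gsto1 0.21 ± 0.06 (adjusted p = 0.15). The genes that rose with IFN-gamma gave 0.12 ± 0.08 for Prdx5, -0.03 ± 0.11 for Txn1 and -0.05 ± 0.07 for Keap1.

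**Figure D5:**
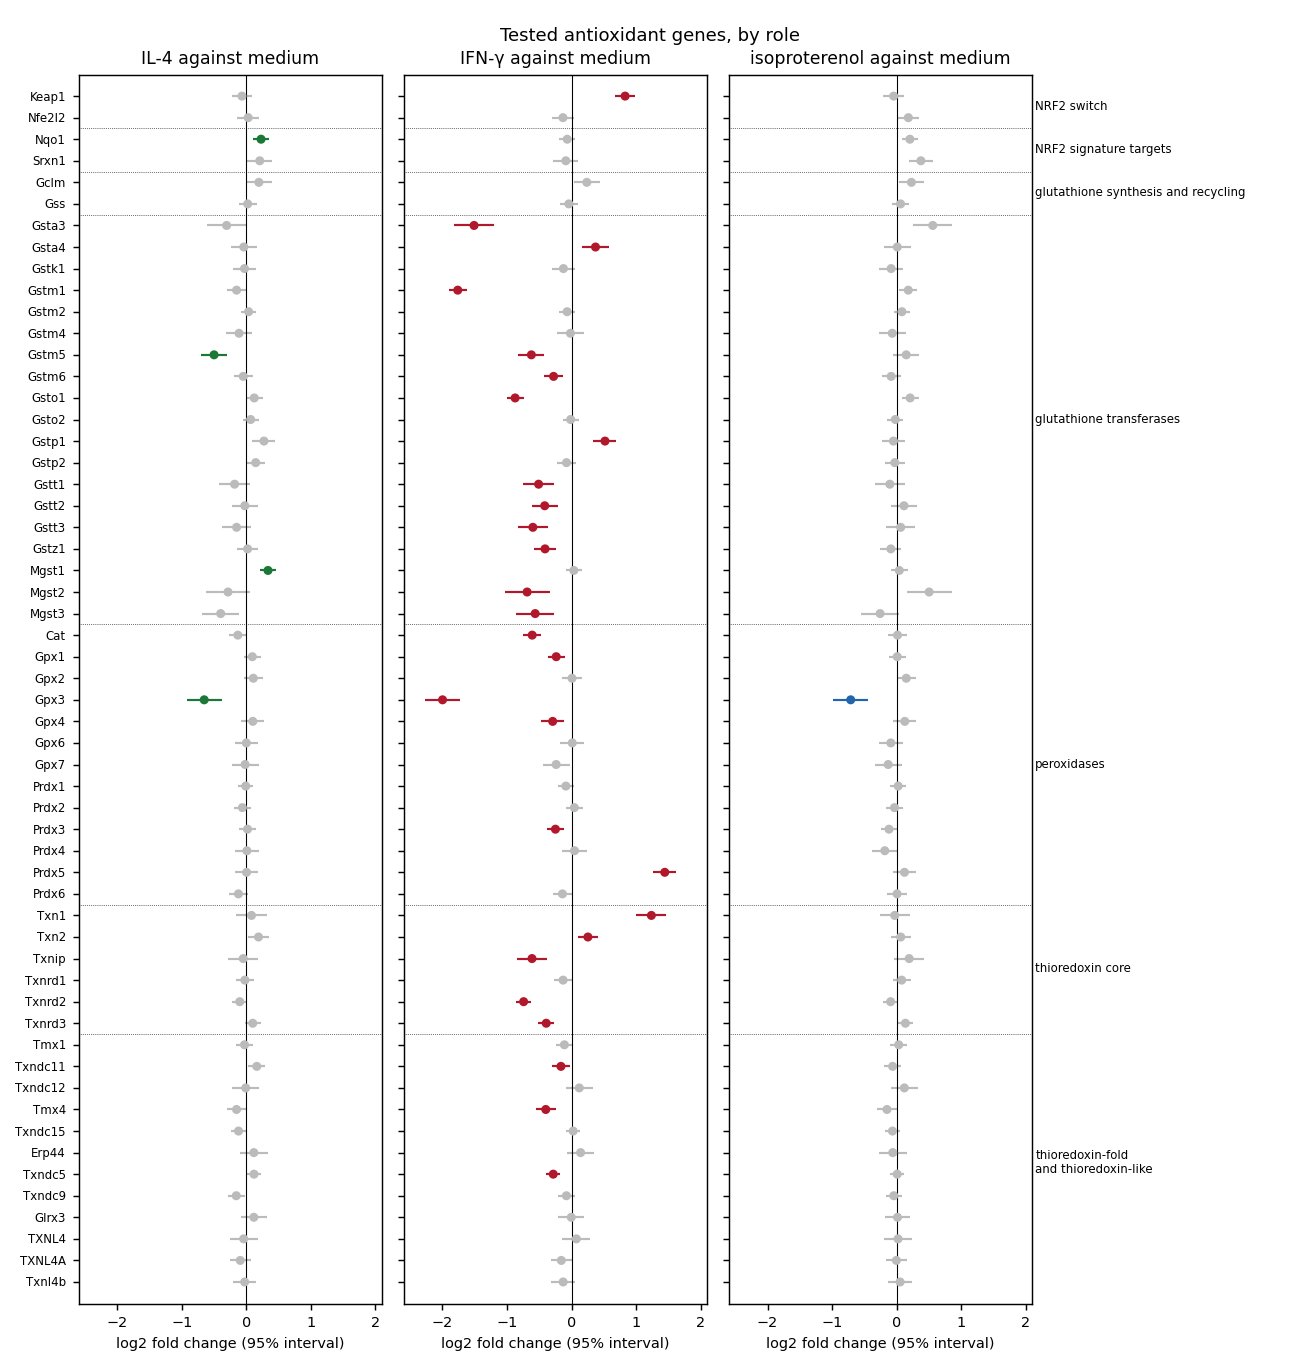
Log2 fold change against medium (95% interval) of the 56 tested members, grouped by role, for IL-4, IFN-gamma and isoproterenol. Coloured points were called at an adjusted p under 0.05: 4 with IL-4, 28 with IFN-gamma and 1 with isoproterenol.

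Set directly against IL-4, isoproterenol differed in 7 members (12.5%, with 11% of all tested genes called), and 6 of them were transferases. Leaving out experiment 1, 2 or 3 gave 3, 2 and 6 calls. In experiment 2 these groups lay on different slides, and within the slides of experiments 1 and 3 the counts were 0 and 4. Of the 7, 4 were higher (7.14%, against 6.46% of all genes) and 3 lower (5.36%, against 4.57%). Gsta3 read 588, 716 and 852 with isoproterenol, against 359.7, 416 and 495 with IL-4, with no overlap (log2 fold change 0.87 ± 0.14, 1.82-fold higher, adjusted p = 0.00181). Mgst2 read 669, 742 and 903 with isoproterenol, against 357, 447 and 588 with IL-4 (0.79 ± 0.16, adjusted p = 0.00775). Gstm5 read 471, 522 and 566 with isoproterenol, against 286, 356 and 439 with IL-4 (0.65 ± 0.09, adjusted p = 0.000802). For these 3 genes all isoproterenol arrays were above all IL-4 arrays. Gstm1 was higher by 0.33 ± 0.06 with arrays that overlapped, while Gstp1 (-0.32), Mgst1 (-0.29) and Txndc11 (-0.22) were lower with isoproterenol. Gpx3 did not separate these activators, at -0.06 ± 0.12 (adjusted p = 0.839, 95% interval -0.33 to 0.21).

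Against IFN-gamma, isoproterenol was called in 31 members (55.4%, beside 45.9% of all tested genes), 24 higher (26.8% of all genes were) and 7 lower (19.1%). IL-4 was called against IFN-gamma in 29 members (51.8%, beside 43.9% of all genes), 23 higher (25.3% of all genes were) and 6 lower (18.6%). Both comparisons use the same IFN-gamma arrays. Of the members higher with isoproterenol the largest differences were those of Gsta3 (2.07 ± 0.14, 4.20-fold higher, adjusted p = 2.99e-07), Gstm1 (1.94 ± 0.06, 3.85-fold higher, adjusted p = 1.15e-09) and Gpx3 (1.29 ± 0.12, adjusted p = 5.37e-06). Of those higher with IL-4 they were Gstm1 (1.61 ± 0.06, adjusted p = 4.42e-09), Gpx3 (1.35 ± 0.12, adjusted p = 3.77e-06) and Gsta3 (1.2 ± 0.14, adjusted p = 2.69e-05). Prdx5, Txn1 and Keap1 were lower in both, with -1.32, -1.27 and -0.88 for isoproterenol and -1.44, -1.16 and -0.90 for IL-4. Txnrd1 was called higher with isoproterenol (0.21 ± 0.06, adjusted p = 0.0196), with arrays that overlapped, and had 0.11 ± 0.06 with IL-4 (adjusted p = 0.208). Nfe2l2 and Srxn1 were higher with isoproterenol than with IFN-gamma (0.31 and 0.46), but without the IFN-gamma array that stood apart they were not called (0.15, adjusted p = 0.254, and 0.25, adjusted p = 0.0906). The Srxn1 call of IL-4 against IFN-gamma was lost in the same way (0.30 with the array, 0.08 without it, adjusted p = 0.615). Without that array isoproterenol against IFN-gamma gave 27 calls: Gstm2, Prdx4 and Txn2 were lost as well (adjusted p = 0.0688, 0.335 and 0.0633) and Mgst3 was gained (0.49, adjusted p = 0.00313). IL-4 against IFN-gamma then gave 30 calls: Gstp2 and Txndc15 were also lost (adjusted p = 0.0525 and 0.068), and Gpx7, Gstm5, Mgst2 and Mgst3 were gained (0.26, 0.28, 0.53 and 0.35). Of 4 tested cycling-cell markers 3 were lower with isoproterenol than with IFN-gamma (median -0.78) and 1 was lower with IL-4 (median -0.45), and their part in these results was not tested.

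Set in order, Gsta3 was highest with isoproterenol (718 ± 112, mean ± SD of normalized intensity, n = 3), followed by 513 ± 107 in medium, 423 ± 46.1 with IL-4 and 223 ± 6.59 with IFN-gamma. Neither isoproterenol nor IL-4 passed the test against medium, but they passed it against each other, and IFN-gamma was below all. Gpx3 was highest in medium (4694 ± 676), followed by IL-4 (2992 ± 338), isoproterenol (2865 ± 166) and IFN-gamma (1227 ± 127), and the test did not separate IL-4 from isoproterenol. Across all 6 comparisons 19 tested members were never called. These were the synthesis genes Gclm and Gss, the peroxidases Gpx2, Gpx6, Gpx7, Prdx1, Prdx2 and Prdx6, the transferases Gstk1, Gstm4 and Gsto2, and 8 entries with a thioredoxin fold or a thioredoxin-like name. Of the 19, Gclm, Gpx7, Gstk1 and TXNL4A were called with IFN-gamma against medium once the array that stood apart was left out, and Gpx7 also in IL-4 against IFN-gamma.

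The wider pathway was read from 2 lists. Of 30 partners and further targets of NRF2, none a member, 25 were tested, and their median log2 fold change was 0.06 with IL-4, -0.20 with IFN-gamma and 0.05 with isoproterenol. With IL-4 5 were higher and none lower, where 4.03% and 3.75% of all tested genes were: the cystine transporter gene Slc7a11 (0.87 ± 0.14), Osgin1 (0.81 ± 0.09), the heme oxygenase gene Hmox1 (0.32 ± 0.07), the biliverdin reductase gene Blvrb (0.30 ± 0.05) and the carbonyl reductase gene Cbr3 (0.25 ± 0.06). With IFN-gamma 4 were higher and 12 lower, where 17.3% and 25.8% of all tested genes were. The largest falls were those of the NADP-dependent isocitrate dehydrogenase gene Idh1 (-1.57 ± 0.12), the epoxide hydrolase gene Ephx1 (-1.33 ± 0.12) and the aldo-keto reductase gene Akr1b8 (-1.09 ± 0.11). Cul3, the scaffold of the ligase that KEAP1 serves, had -0.45 ± 0.05 and was lower, and the NRF2 relative Nfe2l1 was higher by 0.44 ± 0.06. With isoproterenol Osgin1 was the one call (0.59 ± 0.09, adjusted p = 0.0109), and its isoproterenol arrays were all above those of medium.

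Of 36 listed genes of glutathione turnover, glutaredoxins and protein repair, 26 were tested, with medians of -0.02 with IL-4, -0.06 with IFN-gamma and 0.05 with isoproterenol. Erp44 was listed too but is a member and was left out of these counts. Glrx3 is counted here and is also a member through an older entry. With IFN-gamma 5 were higher and 9 lower, where 17.3% and 25.8% of all tested genes were. The sestrin gene Sesn1 had -2.31 ± 0.13 (4.96-fold lower, adjusted p = 6.68e-08) and the small selenoprotein gene Selenow 1.60 ± 0.09 (3.04-fold higher, adjusted p = 9.46e-08). Chac1, whose enzyme degrades glutathione, was higher by 1.18 ± 0.14, and the glutaredoxin gene Glrx by 0.78 ± 0.11, while the dipeptidase gene Dpep2 (-1.31 ± 0.11) and the methionine sulfoxide reductase gene Msrb2 (-1.10 ± 0.09) were lower. With IL-4 2 were higher and 3 lower (4.03% and 3.75% of all tested genes were). The lower ones were Msrb1 (-0.63 ± 0.08), Msrb2 (-0.60 ± 0.09) and Sephs2 (-0.57 ± 0.08), which makes the selenium donor for selenoproteins, and the higher ones Glrx (0.44 ± 0.11) and Esd (0.31 ± 0.08). With isoproterenol none of the 26 was called.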

How the data were processed

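Gene expression was measured on 24 Illumina MouseRef-8 v2.0 bead arrays, which were read with GenomeStudio per the submitters' processing notes (version not given in the sources used here). Per the files, the deposited tables hold linear intensities, for 25697 probes as read and for 18132 genes after a normalization by the authors. The sorted normalized intensities were nearly alike on all arrays (coefficient of variation below 1% at 98.9% of ranks) and still held the background. Neither control probes nor detection p-values came with them, so the planned control-based correction gave way to a step on the deposited normalized intensities: normexp of limma 3.58.1 (R 4.3.3) with an offset of 50, then log2. No source used here states how probes were joined to genes. Of the 72 members, 48 matched a single probe within a root mean square of 0.01 (log2) and 24 did not.

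Genes above the limit on at least 6 arrays were tested. The 2 arrays of an experiment and activator were averaged to 12 values, and group and experiment were fitted to all 10111 genes tested (residual degrees of freedom 6, moderated by empirical Bayes). A fold change depends on the offset. The number of arrays limits the precision. The method was tested on simulated data. Members, lists and tests were chosen with earlier results of these data known. Every member may be named, and values by array are given for members called with a fold of at least 1.5 against medium or between IL-4 and IFN-gamma, for the markers Gsta3, Gpx3 and Txnrd1, and for members called with IL-4 or discussed for a near miss, chosen after their values were seen. Of the pathway lists up to 6 called genes per comparison are named, by size. Names were brought to current symbols, 63 directly and 9 through a synonym. Alternatives covered background, filter, averaging, blocks, slides, probes and left-out experiments.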

Additional observations from a re-analysis of the deposited data

Results flagged for a closer look

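In 56 groups of 6 arrays, those of the 14 members chosen by fold or as markers, a gap test (Dixon's 95% critical value) marked 2 single arrays as far from the rest, where chance marks about 1 in 20. Txn1 read 588 (587.809) on the IFN-gamma array of experiment 1, replicate 1, against 511 to 539.6 on the other 5 IFN-gamma arrays. Txnrd2 read 856 (855.882) on replicate 1 of the medium group in experiment 2, against 765 to 795 on the other 5 medium arrays.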

How the results depend on the processing

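The counts of members called were 4, 28 and 1 for IL-4, IFN-gamma and isoproterenol against medium, 29 for IL-4 against IFN-gamma, and 7 and 31 for isoproterenol against IL-4 and IFN-gamma. Leaving out 1 experiment at a time gave 1 to 3, 25 each time, 0 each time, 23 to 26, 2 to 6 and 24 to 26 in that order; for isoproterenol against medium 9 to 12 members then had an unadjusted p under 0.05 in limma. Within slide 1, which holds experiment 1 alone, limma gave 0, 15, 0, 15, 0 and 14, with 11, 11 and 10 members at an unadjusted p under 0.05 where the count was 0. Within slide 4 isoproterenol against IL-4 gave 4. Fits within a slide have only the 2 arrays of a pair as replicates, which may not be separate cultures. Slide 1 also holds the array that stood apart. There Gstm5 in isoproterenol against IL-4 had 0.755 (limma, adjusted p = 0.336), and on slide 4 it had 0.755 as well (adjusted p = 0.00409). With slide as a block isoproterenol against medium gave 0 (10 at an unadjusted p under 0.05), in a fit where its experiment 2 arrays and the medium arrays of experiment 3 have no weight. Single arrays without averaging gave 7 for IL-4 and 5 for isoproterenol against medium, and 3 for isoproterenol with a random block. Without an experiment term IL-4 against medium gave 1 and isoproterenol against IL-4 gave 4. Fitting only the isoproterenol and medium arrays gave 2. On single probes, where only members matched to 1 probe can count, there were 2 for IL-4 and 18 for IFN-gamma against medium, 17 for IL-4 against IFN-gamma, and 2 and 18 for isoproterenol against IL-4 and IFN-gamma. A fold of at least 1.5 as a second condition left 1, 13, 8, 3 and 13 in the comparisons other than isoproterenol against medium. With a replicate block the count was 8 for IL-4 and 5 for isoproterenol against medium, and a block for experiment and replicate together, chosen after seeing the data, also gave 8 and 5. The numbers share only a label: over 18 pairs of groups the differences between replicates 1 and 2 correlated at -0.01 to 0.22. Without the IFN-gamma array that stood apart the counts were 31 against medium, 30 for IL-4 against IFN-gamma and 27 for isoproterenol against IFN-gamma. For the 14 members chosen by fold or as markers, only the 45 results called in the main fit were followed. Of their 840 results under alternatives, 805 kept their direction and their side of the threshold. A further 35 kept the direction but missed the threshold, and none reversed. Because most of these members were chosen for large called differences, this tally does not speak for weaker results or for calls gained. Members near the background limit, such as Txnrd1 and Nqo1, can show only part of a change. No share over all tested genes stands beside the counts under alternatives. They therefore do not tell whether members gained or lost calls more than other genes did. The causes of these shifts were not tested.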
